A study of Rattus norvegicus with 6 samples.

Results

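Hepatokines are proteins that the liver secretes into the blood and that act on fat, muscle, vessels or the liver itself. The set described here held 7 of them with roles in lipid and glucose control: Angptl4, Fgf21, Ahsg, Fetub, Rbp4, Agt and Hgf. They were chosen by name, and a probe was theirs when its RefSeq transcript carried that symbol. Of the 7, 6 had a probe, 1 each, among 26419 probes and 9627 named genes. Rbp4, the plasma carrier of retinol, was not analysed here.

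The livers came from male Sprague Dawley rats, all on a 60% high-fat diet, sampled at 9 weeks. One group of 3 had received by gavage a dark tea fermented with Eurotium cristatum, which the labels call 8730 dark tea. The control group of 3 had received distilled water. Each sample gave 1 single-colour array, and 3 arrays a group set the precision throughout. Whether the replicates were separate animals is not stated in the labels, and the spread behind the p-values may be technical. The comparison asked what the tea changed in liver transcripts of rats on this diet, and no liver from a rat on normal chow enters it. The arrays carried hepatocyte transcripts at high signal, albumin (Alb) lying between 15.57 and 15.67 log2 units with tea and between 15.42 and 15.76 in controls. Control replicate 1 stood apart over all probes, with a Pearson correlation of 0.884 to 0.899 with the other arrays, against 0.945 to 0.972 among the other 5, so the hepatokine and pathway list results are given with and without it, and those of other named genes where they moved by over 1.5 times. In whole liver, a lower signal from fewer cells of a type and one from less RNA per cell cannot be told apart.

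Angptl4 inhibits lipoprotein lipase, the enzyme that releases fatty acids from circulating triglyceride, and its gene is a target of the fatty acid receptors of the PPAR family. Fgf21 is a fasting hormone that signals through an FGF receptor with the co-receptor beta-klotho, and its liver transcript is known to be induced by PPAR-alpha, by the amino acid stress factor ATF4 and by the carbohydrate-responsive factor ChREBP. The fetuins Ahsg and Fetub are abundant plasma glycoproteins of the cystatin superfamily, Agt is the precursor of the angiotensins, and Hgf is a growth factor for hepatocytes that other liver cells make.

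The stretch upstream of Angptl4 is shown because this gene had the largest difference among the hepatokines, and that of Fgf21 because its transcript lay at the background. RefSeq promoter sequences were held for 5 of the 7 genes on the GRCr8 build. Each line gives the 250 bases before the start used in the RefSeq promoter table, 5′ to 3′ on the gene's own strand, with capitals at every match to the motifs named after them. The Angptl4 stretch is chr7:15258682-15258931 and the Fgf21 stretch chr1:105221377-105221626, both on the minus strand. The Angptl4 start lies inside the annotated gene, which reaches further upstream than the stretch shown.
Angptl4: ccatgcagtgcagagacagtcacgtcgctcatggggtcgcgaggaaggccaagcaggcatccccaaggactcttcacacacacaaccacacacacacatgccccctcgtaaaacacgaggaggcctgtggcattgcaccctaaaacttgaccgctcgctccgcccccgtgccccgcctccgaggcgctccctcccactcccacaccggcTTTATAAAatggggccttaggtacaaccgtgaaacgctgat
Fgf21: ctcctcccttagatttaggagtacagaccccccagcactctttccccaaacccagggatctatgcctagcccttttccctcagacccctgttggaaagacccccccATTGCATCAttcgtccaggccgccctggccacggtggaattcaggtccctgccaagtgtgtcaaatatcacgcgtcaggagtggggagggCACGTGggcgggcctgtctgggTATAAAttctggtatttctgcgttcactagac
The motifs searched, on both strands, were the PPAR response element (a direct repeat of AGGTCA with 1 base between), the nuclear receptor core motif AGGTCA alone, the amino acid response element TGATGCAAT, the E-box CACGTG, the D-box TTATGTAA and the TATA box TATAAA. A match of the first would also match the second. The Fgf21 stretch held the amino acid response element on the opposite strand as ATTGCATCA, from -144 to -136, counted back from the start. That motif was found in 54 of 33469 promoter stretches, or 0.161%. It also held an E-box from -54 to -49, a motif in 5.59% of stretches, and a TATA box from -32 to -27. The Angptl4 stretch held the TATA box from -39 to -34 and, overlapping it on the opposite strand, from -41 to -36. The TATA box occurred in 12.9% of stretches. Of the other 3 genes, Hgf had the core motif from -152 to -147, found in 14.1% of stretches, Rbp4 a TATA box from -50 to -45, and Ahsg no match. None of the 5 stretches held the full PPAR element or the D-box, which occurred in 0.0508% and 0.828% of all stretches. At such low rates their absence from 5 stretches says little, and sequence outside the 250 bases was not searched.

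Angptl4 had the largest difference of the hepatokines and was lower with tea in these arrays, without passing the correction over all probes. Its log2 intensity was 5.58, 5.55 and 5.90 in tea livers, against 5.98, 6.78 and 7.36 in control livers. Every tea value lay below every control value, but tea replicate 3 and control replicate 1 were 0.079 log2 units apart. The means were 5.68 ± 0.20 with tea and 6.71 ± 0.69 in controls (SD, n = 3 each), a log2 fold change of -1.03 ± 0.38 (SE, 95% interval -1.87 to -0.19), or 2.04-fold lower. The unadjusted p in the limma fit was 0.0208, and the adjusted p over 26419 probes was 0.949. Groups that do not overlap, in either direction, were found for 10.4% of all probes, and for 5.54% with tea lower. An exact permutation test (two-sided, 10 splits of the arrays) gave p = 0.1 for Angptl4, the lowest possible with 3 against 3.

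With control replicate 1 left out, the Angptl4 difference was -1.39 ± 0.32 (SE, 95% interval -2.08 to -0.70), or 2.62-fold lower, with a limma adjusted p of 0.430. With any 1 array left out it stayed between -1.39 and -0.70, the smallest without control replicate 3. The tea arrays were close together and the controls were spread, with an SD 3.54 times that of the tea arrays. All 3 tea values and that of control replicate 1 were also near the background. The tea values exceeded the array's 1 random control row by 0.53, 0.45 and 0.75 log2 units. The controls exceeded theirs by 0.58, 1.68 and 2.32. Measured from that row the groups overlapped, as control replicate 1 lay below tea replicate 3. The row itself was highest in control replicate 1, at 5.40 log2 units. So near the background the log2 difference can understate a change in transcript.

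Angptl4 is abundant in adipocytes too, and adipocyte markers were therefore read beside it. Of 8 measured markers, 3 had a higher and 5 a lower mean with tea, and their summed intensity was 2192 to 2366 with tea and 2335 to 2613 in controls, with control replicate 1 the highest. Lep and Adipoq lay near the random control row. They were at 4.88 to 5.22 and 5.22 to 5.67 log2 units with tea, and at 4.83 to 5.20 and 4.90 to 6.16 in controls. Cfd lay well above that row, at 7.26 to 8.83 with tea and 7.07 to 7.78 in controls. Its log2 fold change was 0.58 ± 0.42 (SE, limma adjusted p = 0.949). The mean was also higher with tea for Lep and Lipe, and lower for Retn, Fabp4, Pparg, Cidec and Adipoq. Of the lower ones Pparg differed most, by -0.36 ± 0.47, and by -0.67 without control replicate 1. None of the 8 was at 0. The sum mostly follows 1 marker, Cidec, a lipid droplet protein that hepatocytes of fatty liver are also known to express in mice, which held 66.2% to 77.1% of it with tea and 73.9% to 80.8% in controls. The other 7 summed to 503 to 747 with tea and 501 to 632 in controls. The part of adipose RNA in the Angptl4 difference was not tested.

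Fgf21 was not measurably above the background in either group. Its log2 intensity was 4.98, 4.79 and 5.31 in tea livers, against 5.25, 4.98 and 5.66 in control livers, and the groups overlapped. It lay below the random control row of the same array in 4 of 6 arrays, and the highest excess was 0.61 log2 units, in control replicate 3. The means were 5.03 ± 0.26 with tea and 5.29 ± 0.34 in controls (SD, n = 3 each), with a log2 fold change of -0.27 ± 0.32 (SE, 95% interval -0.97 to 0.44; limma adjusted p = 0.9504). Without control replicate 1 it was -0.29 ± 0.34. At this signal a difference in Fgf21 between the groups was not detectable, and the log2 differences describe array signal at the background.

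**Figure D1:**
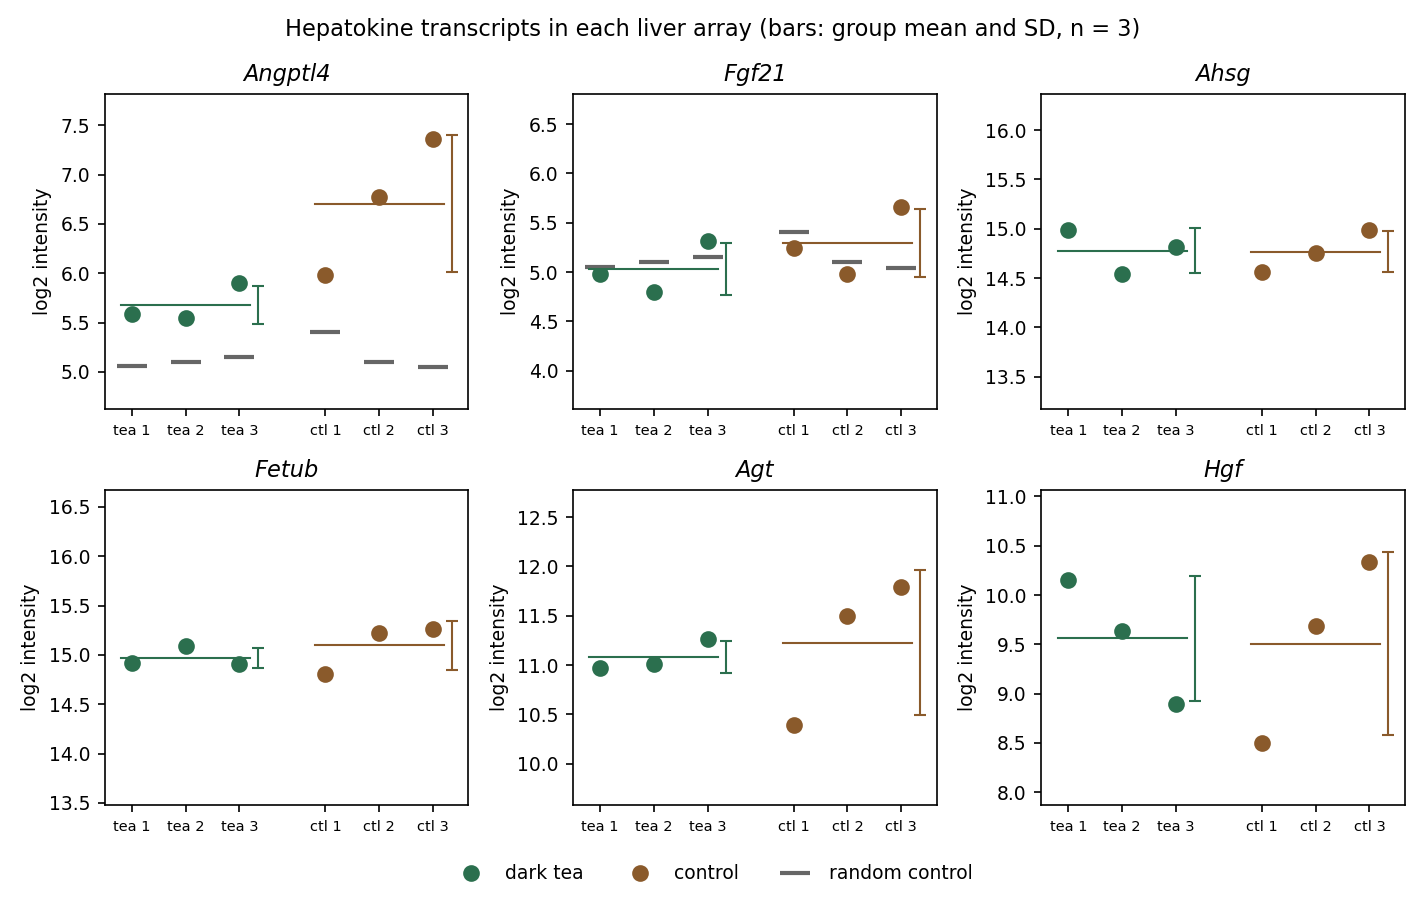
Log2 intensity of 6 hepatokine transcripts (y axis, with the same span in each panel) in 3 dark tea and 3 control arrays (x axis). Points are arrays, lines and bars group means and SDs, and grey dashes the random control row of the same array. Angptl4 runs from 5.55 to 5.90 with tea and from 5.98 to 7.36 in controls, Fgf21 sits around the dashes, and control replicate 1 is the lowest control for Angptl4, Ahsg, Fetub, Agt and Hgf.

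The fetuins varied least. Ahsg, or fetuin-A, binds calcium phosphate in plasma and inhibits the tyrosine kinase of the insulin receptor. Its log2 intensity was 14.99, 14.54 and 14.81 in tea livers, against 14.56, 14.75 and 14.98 in control livers. The groups covered nearly the same range, with means of 14.78 ± 0.23 with tea and 14.77 ± 0.21 in controls (SD, n = 3 each). The log2 fold change was 0.012 ± 0.298 (SE, limma adjusted p = 0.998), and its 95% interval of -0.65 to 0.67 covers changes of up to 1.57-fold lower and 1.59-fold higher. Leaving out control replicate 1 gave -0.089 ± 0.314 (SE, 95% interval -0.76 to 0.58; limma adjusted p = 0.988).

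Fetub, or fetuin-B, is known in mice as the inhibitor of the egg protease ovastacin, and its gene lies next to Ahsg in the RefSeq annotation. Its log2 intensity was 14.92, 15.09 and 14.91 in tea livers, against 14.81, 15.22 and 15.26 in control livers. The tea values lay between control replicate 1 and the other controls. The means were 14.97 ± 0.10 with tea and 15.10 ± 0.25 in controls (SD, n = 3 each), with a log2 fold change of -0.12 ± 0.29 (SE, 95% interval -0.77 to 0.52; limma adjusted p = 0.968). Without control replicate 1 all 3 tea values lay below both controls, at a difference of -0.27 ± 0.30 (SE, limma adjusted p = 0.954). In that comparison 21.1% of all probes had groups that do not overlap. Both fetuins lay more than 9 log2 units above the random control row in all 6 arrays, near the top of the scale, where arrays can compress differences.

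Agt supplies angiotensinogen, which renin cleaves in plasma. Its log2 intensity was 10.97, 11.01 and 11.26 in tea livers, against 10.39, 11.50 and 11.79 in control livers. Control replicate 1 was below every tea array and the other controls were above every tea array. The means were 11.08 ± 0.16 with tea and 11.23 ± 0.74 in controls (SD, n = 3 each), with a log2 fold change of -0.15 ± 0.39 (SE, 95% interval -1.004 to 0.71; limma adjusted p = 0.969). Without control replicate 1 it was -0.56 ± 0.31 (SE, 95% interval -1.23 to 0.10), or 1.48-fold lower, with an adjusted p of 0.903. Without control replicate 3 it turned to 0.14. Agt in control replicate 1 was 1.25 log2 units, or 2.38-fold, under the mean of the other controls.

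Hgf varied about as much over the 6 arrays as Angptl4, with SDs of 0.71 and 0.72 log2 units, but its spread lay within both groups. Its log2 intensity was 10.15, 9.64 and 8.89 in tea livers, against 8.50, 9.69 and 10.34 in control livers. Control values lay at both ends of the range with all tea values between them. The means were 9.56 ± 0.63 with tea and 9.51 ± 0.93 in controls (SD, n = 3 each), with a log2 fold change of 0.052 ± 0.489 (SE, limma adjusted p = 0.993). Its 95% interval, -1.03 to 1.14, covers changes of 2.04-fold lower to 2.20-fold higher, the widest of the 6. The difference without control replicate 1 was -0.45 ± 0.39 (SE, adjusted p = 0.932), and without control replicate 3 it was 0.47.

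Because Hgf is made by stellate and endothelial cells in liver, their markers were read beside it. Of 13 stellate cell and myofibroblast markers, 7 had a higher and 6 a lower mean with tea, and their summed intensity was 3070 to 3729 with tea and 2885 to 3176 in controls. Control replicate 1, the lowest in Hgf, had a sum of 3012. The sum mostly follows the collagen genes Col1a2, at 10.15 to 10.76 log2 units over all arrays, and Col3a1, at 8.42 to 9.82. Dcn, which encodes the matrix proteoglycan decorin, had the smallest p of these markers and was named after its values were seen. It was at 7.55, 7.46 and 8.45 log2 units with tea, against 6.88, 5.96 and 6.64 in controls, without overlap, with a log2 fold change of 1.33 ± 0.38 (SE, limma adjusted p = 0.949), and 1.52 without control replicate 1. Only 5 endothelial markers were measured, with sums of 2049 to 2489 with tea and 1804 to 3502 in controls. Among the controls, replicate 1 had the lowest of these sums and replicate 3 the highest, as in Hgf. Fcgr2b had the highest level of the 5 in every array. With tea it was at 10.26, 9.89 and 9.91 log2 units. Among the tea arrays, replicate 3 was the lowest in Kdr, as in Hgf, but not in Fcgr2b, Pecam1, Oit3 or Flt4. Of these markers, 1 stellate and 0 endothelial ones had a mean under that of the random control row, and none was at 0. The part of these cells in the Hgf spread was not tested.

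Over the 6 hepatokines, 0 passed the adjusted threshold of 0.05 in limma, where 1 of 26419 probes did (0.00379%). At an unadjusted p under 0.05, limma took Angptl4 alone, against 4.23% of all probes. In a test that used only the variance of the probe itself, 0 of 6 passed at either threshold, where 0% of all probes passed the adjusted and 3.24% the unadjusted one. Mean levels were lower with tea for 4 of 6, as for 50.3% of all probes, and the median of the 6 log2 differences was -0.14, against -0.0022 over all probes. When control replicate 1 was left out, all 6 were lower with a median of -0.37, against 0.0065 over all probes, of which 49.3% were lower. The 6 include Fgf21, whose signal lay at the background, and Ahsg, which then differed by only -0.089 ± 0.314 (SE). Again 0 of 6 passed in limma, where 0.0227% of probes did, and 1 had an unadjusted p under 0.05. Without control replicate 3 the median was 0.039, with 3 of 6 lower.

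**Figure D2:**
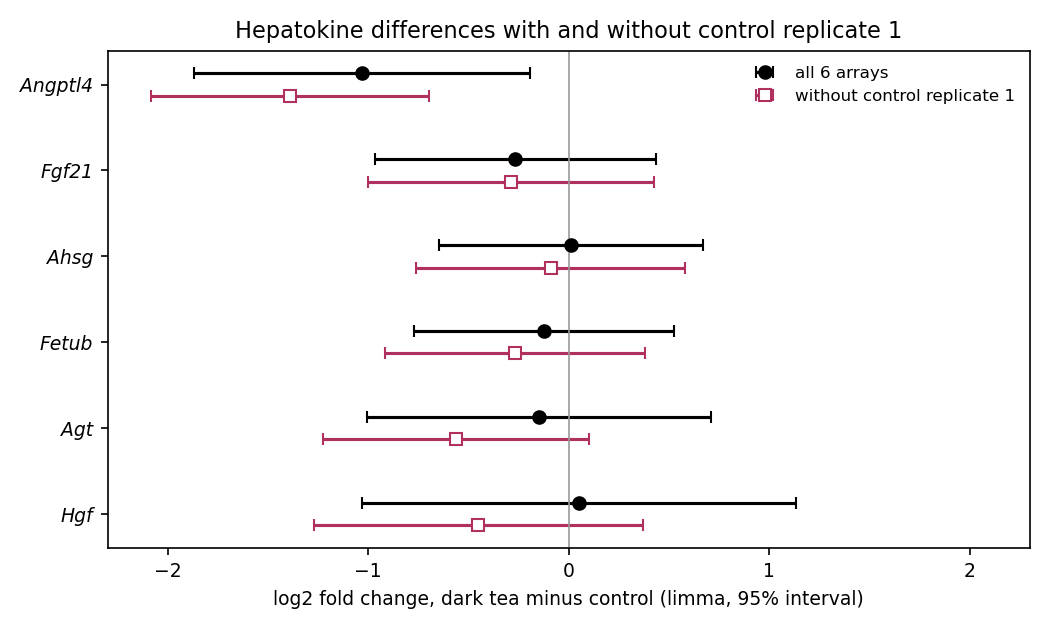
Log2 fold change, dark tea minus control (x axis), of each hepatokine (y axis), with limma's 95% intervals, over all 6 arrays (filled circles) and without control replicate 1 (open squares). The Angptl4 intervals, -1.87 to -0.19 and -2.08 to -0.70, lie below 0, and those of the other 5 genes include 0. These intervals are not corrected for the number of probes.

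**Figure D3:**
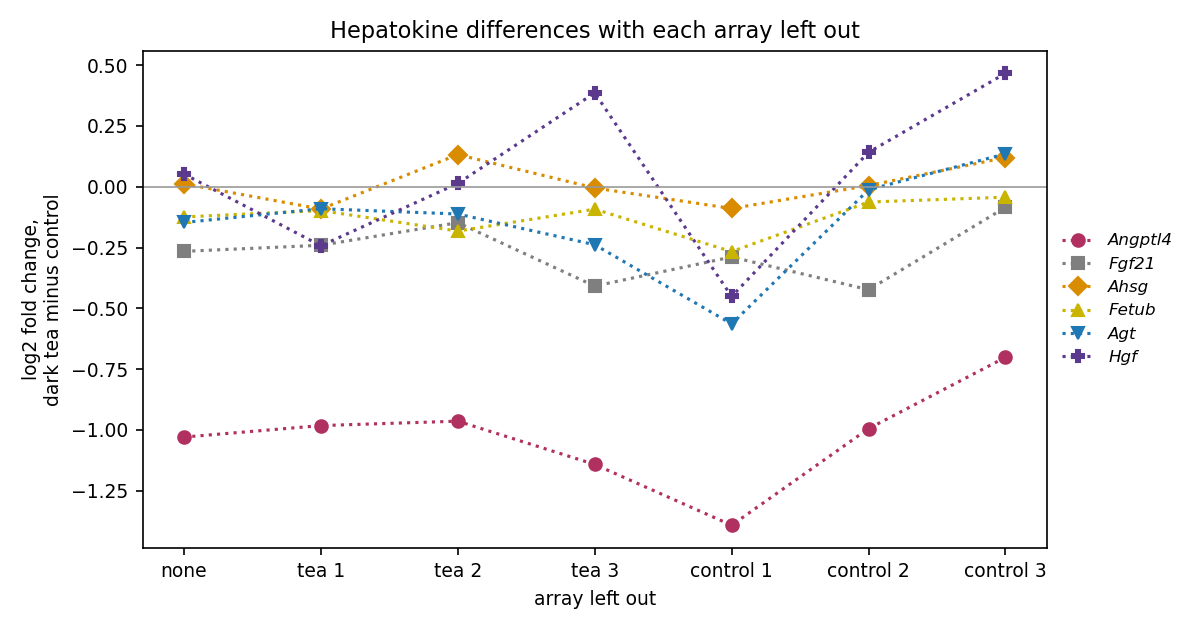
Log2 fold change of each hepatokine (y axis) with no array or 1 array left out (x axis). Dotted lines join the values of a gene only to guide the eye. Angptl4 stays between -1.39 and -0.70, while Hgf runs from -0.45 to 0.47 and Agt from -0.56 to 0.14.

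The genes around the hepatokines were read in 8 lists with 123 distinct measured genes. In limma 0 of them passed the adjusted threshold, with adjusted p between 0.949 and 0.9999, and 0 passed as well with the variance of the probe itself. At an unadjusted p under 0.05, limma took 7 (5.69%), of which 6 were lower with tea and 1 higher, against 4.23% of all probes. The test with the probe's variance alone took 9 (7.32%), against 3.24%. After control replicate 1 was left out, again 0 passed the adjusted threshold in limma. An unadjusted p under 0.05 was then found for 13 of the 123 genes, against 5.63% of all probes. Over the 123 genes, 77 had a lower mean with tea (median -0.16), where 50.3% of all probes did. Without control replicate 1 it was 92 of the 123 (median -0.23), where 49.3% of all probes were lower. Of 16 general hepatocyte markers, 10 had a lower mean with tea (median -0.055). Without control replicate 1 it was 13 of the 16 (median -0.19), so a lower mean was not particular to the pathway genes. The lists were chosen with earlier results of these data known. Of the values below, none passed the adjusted threshold.

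PPAR-alpha targets are the list that Angptl4 and Fgf21 share. Of 28 measured members, 18 had a lower and 10 a higher mean with tea (median -0.19 on the log2 scale), and 24 were lower without control replicate 1 (median -0.24). Plin2, which coats lipid droplets, was at 9.49, 9.46 and 8.57 log2 units with tea, against 10.43, 10.58 and 10.56 in controls. Cyp4a2, a fatty acid omega-hydroxylase, was at 12.86, 11.91 and 12.30 with tea, against 13.49, 13.82 and 13.38 in controls. Control replicate 1 was like the other controls in both, unlike in Angptl4. Cyp4a3, of the same family, had a log2 fold change of -0.95 ± 0.31 (SE). Pdk4, which restrains pyruvate oxidation, was not among the 3 genes the rule takes and was named after its values were seen: it lay at 10.40, 7.95 and 9.73 with tea, against 10.08, 11.02 and 11.19 in controls, and the groups overlapped.

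Among genes that sense or induce Fgf21, 6 of 11 had a lower and 5 a higher mean with tea, with a median of -0.44, and 9 were lower without control replicate 1 (median -0.29). Fgfr3, an FGF receptor, was at 6.77, 6.70 and 6.94 with tea, against 5.75, 5.96 and 6.14 in controls, so its groups did not overlap, and its log2 fold change was 0.85 ± 0.29 (SE). Rxra, the partner receptor of PPAR-alpha, differed by -0.79 ± 0.40, and by -0.36 without control replicate 1. Ppargc1a, a co-activator of oxidative and gluconeogenic genes, differed by 0.77 ± 0.39.

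In the list of lipoprotein lipase control, where Angptl4 acts, 7 of 11 had a lower and 4 a higher mean with tea, with a median of -0.28, and 10 were lower without control replicate 1 (median -0.41). Apoa5, an apolipoprotein that promotes lipase action, was at 11.11, 10.74 and 10.74 with tea, against 11.99, 11.15 and 11.62 in controls. Its groups did not overlap, and its log2 fold change was -0.72 ± 0.32 (SE). Apoc2, the lipase's activator, was at 11.64, 11.37 and 11.44 with tea, against 12.23, 11.86 and 12.02 in controls, and differed by -0.55 ± 0.29. Furin, a protease that cleaves angiopoietin-like proteins, differed by -0.46 ± 0.29. In these 3 genes control replicate 1 was the highest control or lay between the other controls, whereas in Angptl4 it was the lowest.

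Of 15 further hepatokines, 9 had a lower and 6 a higher mean with tea, with a median of -0.15, and 13 were lower without control replicate 1 (median -0.22). Inhbe, which encodes the liver activin E subunit, was at 7.44, 7.81 and 7.25 with tea, against 8.75, 8.14 and 8.32 in controls, and differed by -0.91 ± 0.31 (SE). Igf1, the growth hormone dependent growth factor, was at 12.95, 13.23 and 13.28 with tea, against 13.74, 13.31 and 13.69 in controls. Neither gene's groups overlapped, though for Igf1 tea replicate 3 and control replicate 2 nearly met. Smoc1, a secreted matricellular protein, differed by -0.54 ± 0.38, and by -0.30 without control replicate 1.

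Around the fetuins, 7 of 12 type 3 cystatins and partners had a lower and 5 a higher mean, with a median of -0.081, and 8 were lower without control replicate 1 (median -0.38). Cstb, an intracellular cystatin, differed by -0.72 ± 0.36 (SE), Insr, the insulin receptor that fetuin-A inhibits, by -0.60 ± 0.30, and the kininogen gene Kng2l1 by -0.38 ± 0.33, or -0.58 without control replicate 1. The kininogens are similar in sequence, so their probes may share signal. Insr was at 7.95, 7.85 and 7.44 with tea, against 8.52, 8.16 and 8.36 in controls, without overlap.

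In the renin-angiotensin list around Agt, 9 of 15 had a lower and 6 a higher mean, with a median of -0.050, and 8 were lower without control replicate 1 (median -0.045). The genes with the smallest p were Ace, the angiotensin-converting enzyme, at 0.47 ± 0.32 (SE), the aldosterone synthase gene Cyp11b2 at -0.46 ± 0.33 and the receptor gene Agtr1b at -0.38 ± 0.34. Ace and Cyp11b2 had levels between 4.48 and 5.61 log2 units in all arrays, around the random control row, so their differences say little, and that of Cyp11b2 was -0.24 without control replicate 1.

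In the list of HGF activation and its receptor, 10 of 14 had a lower and 4 a higher mean, with a median of -0.21, and 10 were lower without control replicate 1 (median -0.15). Spint2, an inhibitor of the proteases that activate HGF, differed by -0.63 ± 0.32 (SE), and Hgfac, the plasma activator of pro-HGF, by -0.68 ± 0.38. Plaur, the urokinase receptor, differed by 0.45 ± 0.29. Its levels were 5.01 to 5.35 log2 units with tea and 4.57 to 4.86 in controls, around the random control row, so its difference says little. Hgfac differed by -0.37 without control replicate 1. In the retinoid list, that of the pathway Rbp4 serves, 12 of 19 had a lower and 7 a higher mean, with a median of -0.098, and again 12 were lower without control replicate 1 (median -0.11). Rdh16, a retinol dehydrogenase, differed by 0.91 ± 0.58, and by 0.21 without control replicate 1. Dhrs3, which reduces retinal, differed by -0.54 ± 0.35, and the retinoic acid hydroxylase gene Cyp26a1 by 0.41 ± 0.30. Cyp26a1 had levels of 5.22 to 5.96 log2 units over all arrays, near the random control row.

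**Figure D4:**
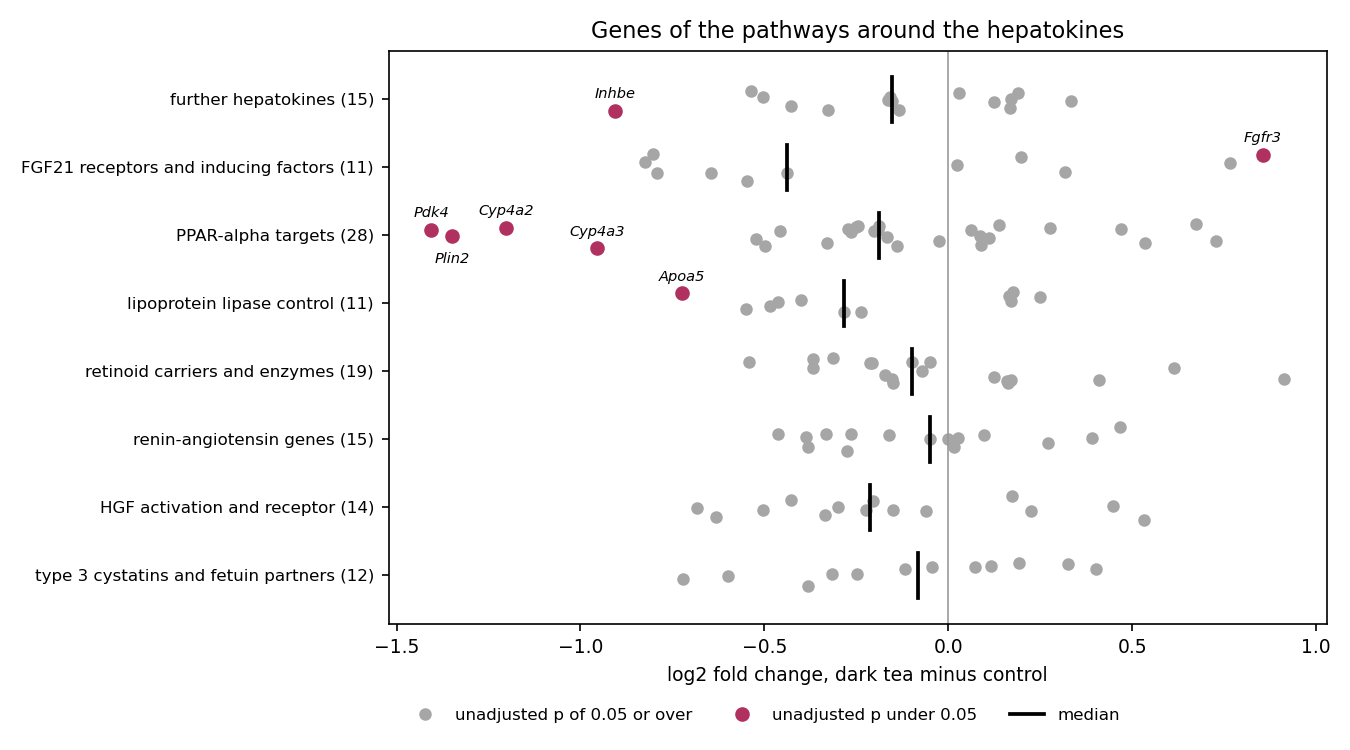
Log2 fold change, dark tea minus control (x axis), of each gene in 8 pathway lists (y axis, with the number of genes), with the median of each list as a black bar. Genes at an unadjusted limma p under 0.05 are coloured and named: 6 lie below 0 and Fgfr3 lies above, and none passed the adjusted threshold.

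Genes with the nearest profile to each hepatokine were taken as those with the smallest root mean square difference of mean-centred log2 values over the 6 arrays. For each, 4871 or 4872 named genes were compared, so close matches occur by number alone, and the arrays are shared. Nearest to Angptl4 were Atox1, a copper chaperone, at 0.15 log2 units, Hsd11b1, which regenerates active glucocorticoid, at 0.17, and St3gal6, a sialyltransferase, at 0.21. All 3 had higher levels in control replicates 2 and 3 than in the other 4 arrays. Nearest to Agt were Apoa4, an apolipoprotein of triglyceride-rich particles, at 0.074, the tetraspanin gene Cd82 at 0.095 and the proteasome receptor gene Adrm1 at 0.12. These had their lowest value in control replicate 1. Nearest to Hgf were Ostf1 at 0.11, the aminopeptidase gene Anpep at 0.12 and Rasa1, a negative regulator of RAS, at 0.12. They were low in tea replicate 3 and control replicate 1.

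For Ahsg the nearest were the Golgi SNARE gene Gosr2 at 0.037 log2 units, Bace1, a membrane aspartyl protease, at 0.075 and Ccdc88b at 0.093. For Fetub they were Drap1, a repressor of transcription initiation, at 0.070, the mitochondrial ribosome gene Mrps22 at 0.076 and Chfr at 0.078. For Fgf21 they were Fcgrt, the neonatal Fc receptor, at 0.077, the endothelin receptor gene Ednra at 0.084 and Yipf1 at 0.12, which for a transcript at the background describes the array signal only. Among the hepatokines themselves, Ahsg and Fetub were nearest at 0.21 and Angptl4 and Hgf farthest at 0.73. This measure grows with a gene's spread. Ahsg and Fetub had the smallest SDs over the 6 arrays, 0.20 and 0.18, and Angptl4 and Hgf the largest, 0.72 and 0.71. These 2 distances therefore do not show whether the profiles of a pair are alike in shape.

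**Figure D5:**
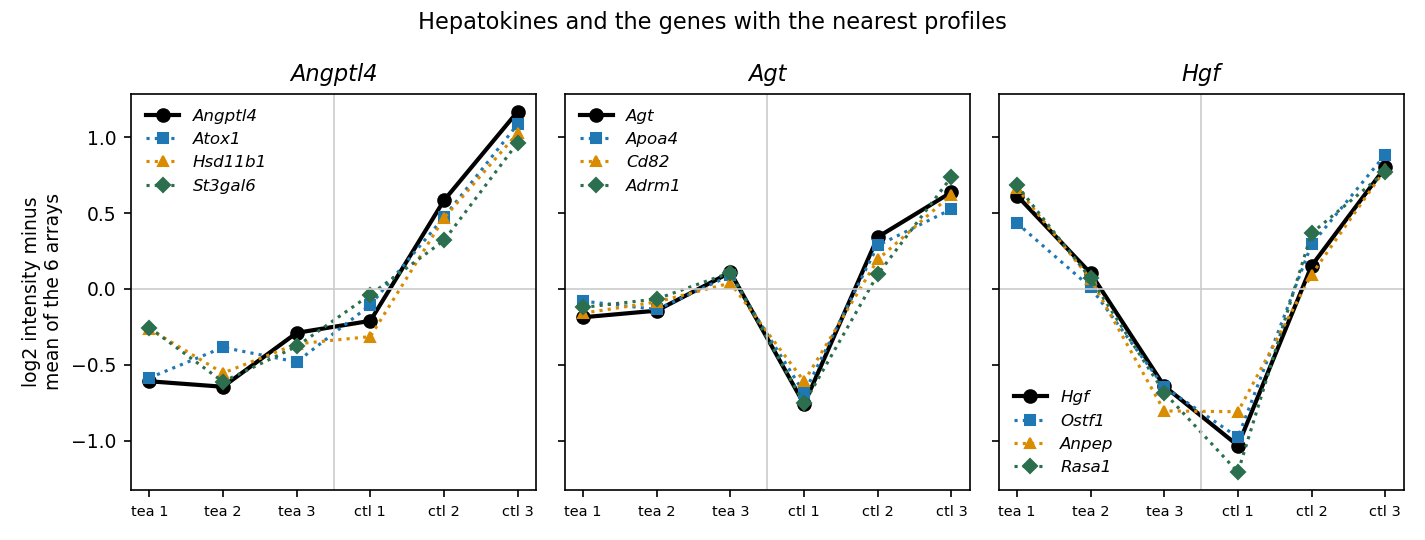
Log2 intensity minus the mean of the 6 arrays (y axis) in each array (x axis, tea left of control) for Angptl4, Agt and Hgf and the 3 genes nearest to each. Lines join the arrays only so that a profile can be followed. Agt and its neighbours have their lowest value in control replicate 1, and Hgf and its neighbours are low in that array and in tea replicate 3.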

How the data were processed

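RNA from liver was labelled with Cy3 for NimbleGen arrays, per the labels. The authors deposited 1 linear intensity for each probe on each array. The submitters' processing notes name RMA, with version and settings not given in the sources used here. RMA equalises the distributions of arrays, which hides differences in total signal. The 1 random control row was kept out of the tests and marks the background. Intensities were taken to log2 without rescaling, and all 26419 probes were tested. RefSeq transcripts of GRCr8 named 9747 probes with 1 symbol each, leaving 16672 unnamed here. The probe of highest mean stood for a gene.

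limma 3.58.1 (R 4.3.3, lmFit with eBayes, two-sided) set dark tea minus control, with Benjamini-Hochberg adjustment over all probes and a threshold of 0.05. The fit was tested on simulated data. Members and lists were chosen with earlier results of these data known. Named are all members, the 3 genes of each pathway list with the smallest p and the 3 genes nearest in profile to each member. Alternatives covered normalization, a filter on dim probes, the log offset, the variance model, a replicate block, array weights, each array left out, the mean of a gene's probes and named probes alone. The main fit did not pair same-numbered samples. With 3 arrays a group, their deviations are too few to settle whether the numbers mark a pairing.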

Additional observations from a re-analysis of the deposited data

How the results depend on the processing

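Every hepatokine stayed short of the adjusted threshold in limma and in Welch's test under all alternatives run. Angptl4 and Fetub kept their direction in all of them, and Fgf21 is left out of this since its signal lay at the background. Angptl4 lay between -1.30 and -0.73 when no array was left out, with adjusted p between 0.0757 and 0.999, the smallest with array weights. Ahsg turned to -0.022 with a second quantile normalization and to -0.19 with array weights, and Hgf to -0.17 with array weights. With 1 array left out, Agt ran from -0.56 to 0.14, Ahsg from -0.092 to 0.13, Hgf from -0.45 to 0.47, Angptl4 from -1.39 to -0.70 and Fetub from -0.27 to -0.043. The cause of these turns was not tested. Of all probes, 1 passed with all arrays, 0 with log2(intensity + 32), 0 with Welch's test and 27 with array weights, 9 of them higher and 18 lower with tea. With an array left out 0 to 6 passed, with 0 when any tea replicate or control replicate 3 was left out and 6 without control replicate 1. With the replicate number as a block 0 passed, and the block changed no other call. Deviations of same-numbered samples correlated at -0.22, 0.013 and -0.25. With 3 arrays a group these values are too few to settle whether the numbers mark a pairing. Signal over background limits Fgf21 in all arrays, and Angptl4 in the tea arrays and in control replicate 1.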
